A study of Mus musculus with 2 samples.

Results

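The collagen chain genes are the 44 of 21938 protein-coding mouse genes in GENCODE vM21 whose symbol is Col, a number, the letter a and a number. MAFK binding at them was read from the optimal list of 16865 regions, by taking each region whose summit lay in the body of a collagen gene or within 10 kb of one of its transcription start sites (TSSs). This gave 31 regions at 21 of the 44 genes, and no region fell to 2 collagen genes. The list was made by chromatin immunoprecipitation with sequencing (ChIP-seq) with an antibody to MAFK in ES-E14, a mouse embryonic stem cell line of strain 129/Ola that the labels call male. There was 1 group, of 2 biological replicates that the labels trace to the same source of cells, with no second condition and no treatment. RNA was not measured, so the labelled cell type could not be checked against marker genes, and a region near a gene does not show that MAFK acts on it. The 31 regions, and the 21 genes that have them, were selected on presence in the optimal list and on the place of the summit, so their values are descriptions set beside the same values over all genes or all regions, with no test.

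Collagens are the main structural proteins of the extracellular matrix. Alpha chains of repeated glycine-containing units wind into a rope-like helix, and the types differ in what they build: fibrils in bone, skin and cartilage, networks in basement membranes, filaments, or proteins that span the cell membrane. MAFK is a small MAF factor without a transactivation domain of its own and occupies DNA in pairs, with itself or with a CNC-family partner (NRF2 and BACH1 are examples). Its sites are MAF recognition elements (MAREs), in which a TGCTGA core stands on each side of a shared middle, and antioxidant response elements (AREs), in which a CNC site is joined to 1 MAF core.

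The sequences at the summits show the range of sites at these genes. They come from GRCm38, the assembly of mm10. The first group holds, within 50 bp of the summit, the composite element in capitals: the AP-1 element, TGACTCA or TGAGTCA, directly followed by GCA, so that it ends in a MAF core read on the other strand. The 6 regions with this element are all shown, in the order of their signal.
Col13a1, chr10:61930091-61930120, + strand: atgttggtgcTGAGTCAGCAaaatctgaaa
Col18a1, chr10:77134126-77134155, + strand: caaaggtgccTGACTCAGCAcatttgcaaa
Col25a1, chr3:130220985-130221014, + strand: cactctctgaTGACTCAGCAttcctgtgtg
Col6a6, chr9:105696906-105696935, + strand: agaaggttgcTGACTCAGCAgctttgcctc
Col25a1, chr3:130362111-130362140, + strand: acacttttgaTGACTCAGCAgtactcttca
Col11a2, chr17:34057492-34057521, - strand: ccaaggcggcTGACTCAGCAagatccaagc

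The second group is shown because its members match a longer palindrome, with a wider middle between the cores. The sites at Col25a1 and Col26a1 hold a MAF core on both sides, and that at Col19a1 on 1 side. Capitals mark the best match, with up to 2 mismatches, to the C-MARE palindrome, which is TGCTGA, then CG, then TCAGCA.
Col25a1, chr3:130368535-130368564, + strand: tgaaaataTGCTGATGTCAGCAattatgtt
Col26a1, chr5:136888564-136888593, + strand: ttcactttTGCTGAAGTCAGCAaagcccct
Col19a1, chr1:24373859-24373888, + strand: caggcaaaTGCTGACCTAAGCAtaaaccct

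The third group gives the 3 strongest regions with an ARE core (TGACNNNGC or TGAGNNNGC, in capitals) and no composite element.
Col27a1, chr4:63307551-63307579, - strand: acagaagcgcTGACAAGGCacccagatga
Col3a1, chr1:45329351-45329379, + strand: aaatatgtgaTGAGTAAGCaaattttaat
Col23a1, chr11:51349847-51349875, + strand: ttaaatgtgcTGAGCAAGCaggttctaca

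Of the collagen genes, 21 (47.7%) had a MAFK region, against 34.0% of all protein-coding genes. Collagen genes are long, with a median of 114 kb against 17.4 kb. Among genes over 100 kb, 13 of 26 collagen genes had a region against 73.2% of all protein-coding genes. Among those of 25 to 100 kb it was 8 of 13 (61.5%) against 42.5%, and under 25 kb 0 of 5 against 22.5%. Collagen bodies held 26 summits in 5.36 Mb, or 4.85 per Mb with an exact Poisson interval of 3.17 to 7.10, against 7.91 per Mb over all protein-coding bodies. Over 100 kb the densities were 4.43 per Mb (2.74 to 6.77) for collagen genes and 6.52 per Mb for all genes. The share above that of all genes was therefore not seen among the longest genes, where the collagen share and density lay below those of all genes. The count of 21 genes fell to 10 with the thresholded list of replicate 1 and to 13 with that of replicate 2. Those lists hold 7748 and 9541 regions, against 16865 in the optimal list. The share of all protein-coding genes with a region in each of them is not given here, so the fall is not read as particular to collagen genes.

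**Figure D1:**
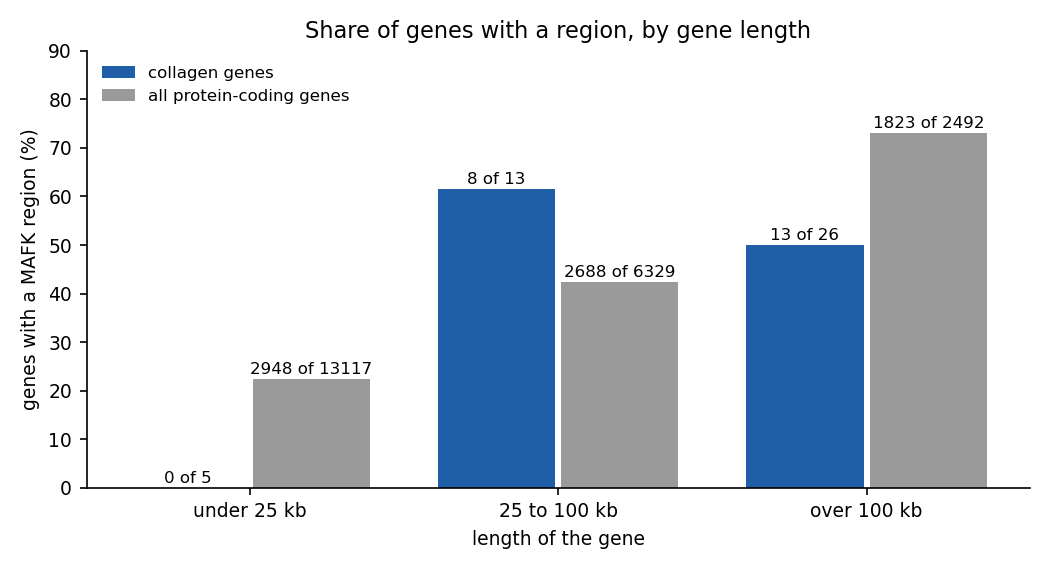
Share of genes with a MAFK region (%, vertical axis) in 3 classes of gene length, for collagen genes (blue) and all protein-coding genes (grey), with the counts above the bars. Collagen genes lie above all genes between 25 and 100 kb and below them in the other classes.

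Summits were in the gene body for 26 of the 31 regions (83.9%) and upstream of it for 5. Of the 10472 regions at any protein-coding gene by the same rule, 78.6% were in a gene body. Of the 26, 24 were in an intron of the main transcript (the APPRIS principal one), 9 of them in intron 1 or 2. The other 2 were at Col5a1, in an exon after the coding sequence, and at Col18a1, in intron 2 of its longest transcript. In all, 18 regions were over 10 kb and 7 over 50 kb from every TSS of the gene, and 2 were within 1 kb. A protein-coding TSS lay within 1 kb of 6.45% of the collagen summits, of 18.96% of the summits that the same rule gives to any protein-coding gene, and of 11.8% of all summits. The nearest protein-coding TSS belonged to another gene for 2 regions, and 1 region, at Col5a3, was also within 10 kb of a TSS of Rdh8.

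The signal value is a score that the authors gave each region without stating its scale, so ranks are given beside it. Over the 31 regions it went from 9.92 to 438, with a median of 29.5 against 27.8 over all regions on the assembled chromosomes. Of the 31, 9 were in the strongest 25% of the list and 6 in the weakest 25%. The values were therefore spread over the whole list, with counts in the strongest and weakest 25% near those of any set of 31 regions. The number of regions per gene was 1 at 15 genes, 2 at 3 genes and 3 or more at 3 genes, Col13a1, Col25a1 and Col27a1. Over all protein-coding genes, which are mostly shorter, 5.06% had 3 or more, and this share was not split by gene length.

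**Figure D2:**
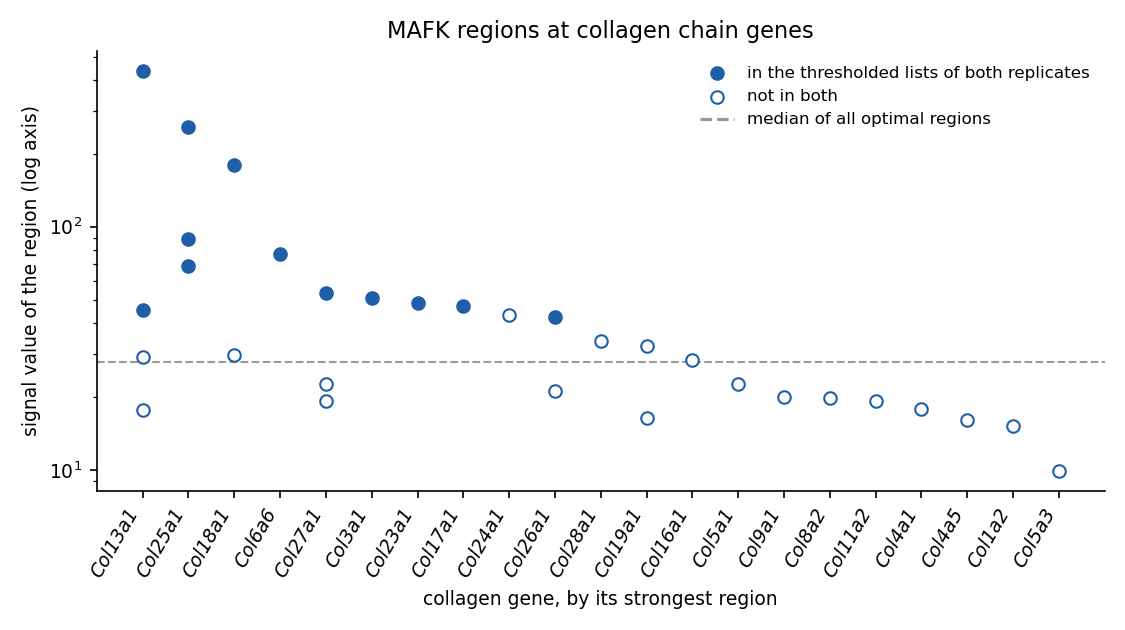
Signal value (log axis) of each of the 31 regions by gene, with filled circles for regions in the thresholded lists of both replicates and open circles for the others. The dashed line is the median of all optimal regions, 27.8; the 12 filled circles lie at 42.7 and above.

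The transmembrane collagens carried the 2 strongest regions. All 4 genes, Col13a1, Col17a1, Col23a1 and Col25a1, had a region, with 9 regions in all and a median signal of 48.6. Of the 9, 7 were in both replicates' thresholded lists, against 35.4% of all optimal regions. With 9 regions at 4 genes, this is not read as a trait of the class. Col13a1, Col23a1 and Col25a1 are over 100 kb, a length class in which 73.2% of all protein-coding genes had a region. Col17a1 is between 25 and 100 kb, where the share was 42.5%. The transmembrane chains sit in the plasma membrane with the collagen part outside the cell. Their genes had a median length of 217 kb.

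Col13a1, a collagen of cell adhesions and the neuromuscular junction, had the strongest region of the family. It lay in intron 2, 49000 bp from the 5' end of the gene (chromosome 10, 61929910 to 61930279), with a signal of 438 and rank 8 of the list. In the relaxed list of replicate 1 it had a signal of 257 and rank 3, and in that of replicate 2 a signal of 183 and rank 36. It was thus near the top in both replicates. The composite element shown above is centred 2.5 bp from the summit and is part of a complete T-MARE palindrome (TGCTGA, then C, then TCAGCA, on either strand) with no mismatch. Further regions were in intron 14 (61890515 to 61890810, signal 45.4), 1663 bp upstream of the gene (29.2) and in intron 5 (17.6). Of these, the one in intron 14 was in both replicates' thresholded lists, and the one upstream was in that of replicate 2.

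Col25a1, a collagen found in amyloid plaques and needed by motor neurons, had 3 regions in its intron 2, which spans 204040 bp. The strongest (chromosome 3, 130368383 to 130368691) had a signal of 256, rank 163, with 159 in replicate 1 and 95.8 in replicate 2. It was 110268 bp from the nearest TSS of the gene. It had neither the composite element nor an ARE core, and its summit sat on the C-MARE shown above, with 1 mismatch. The other 2, at 130220932 to 130221077 (signal 89.4) and 130361978 to 130362273 (69.0), each had a composite element with 1 mismatch to the T-MARE palindrome. All 3 were in both replicates' thresholded lists. The last was stronger in replicate 1, where its signal was 50.9 and its rank 1464, than in replicate 2, at 19.2 and rank 6039.

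The other transmembrane genes had 1 region each. That of Col23a1 lay in intron 2, which spans 200243 bp, at chromosome 11, 51349699 to 51349994, with a signal of 48.6 (18.8 and 29.5 in replicates 1 and 2). Col17a1 encodes a hemidesmosome protein of skin, and its region was 8611 bp upstream of the gene (chromosome 19, 47700557 to 47700852) with a signal of 47.1 (27.8 and 18.4). This is the region farthest upstream that the rule of 10 kb took in. Both were in the thresholded lists of both replicates.

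**Figure D3:**
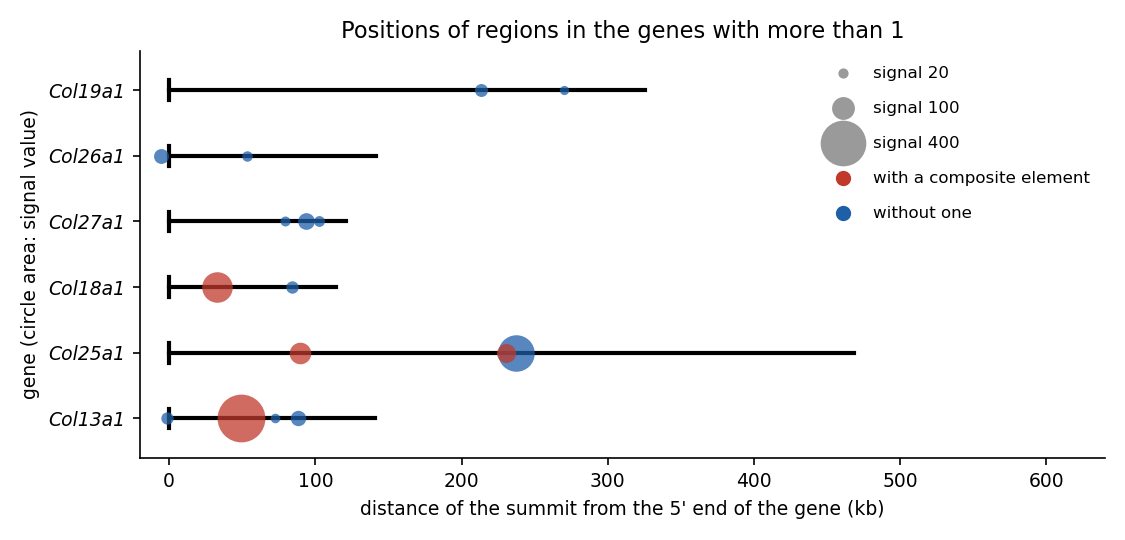
Position of each summit (kb from the 5' end of the gene, horizontal axis) in the 6 collagen genes with more than 1 region, with circle area in proportion to the signal value. Black lines are gene bodies with a tick at the 5' end, and red circles mark regions with a composite element, such as the region of Col13a1 with a signal of 438.

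The multiplexin and beaded filament genes gave 2 more strong regions. Col18a1 encodes a basement membrane collagen from which endostatin is cut, and its strongest region had a signal of 179 (chromosome 10, 77134021 to 77134273, rank 458). The replicates gave it nearly the same signal, 89.2 and 91.7, and ranks of 495 and 446. It lay 20185 bp upstream of the nearest TSS and held a composite element with 2 mismatches to the palindrome. A second region in intron 5 had a signal of 29.5 and was in neither thresholded list. Col15a1, the other multiplexin gene, had no region.

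Col6a6, an alpha chain of the collagen VI filaments, was the only 1 of 6 beaded filament genes with a region. That region lay in intron 35 (chromosome 9, 105696853 to 105697034), with a signal of 76.9 in the optimal list, 39.7 in replicate 1 and 37.5 in replicate 2. Its composite element is part of a complete T-MARE palindrome, as at Col13a1, and these were the 2 complete palindromes among the 31 regions. The nearest protein-coding TSS was that of Pik3r4, 15132 bp away. Col6a1, Col6a2, Col6a3, Col6a4 and Col6a5 had none. Of all protein-coding genes under 25 kb, the class of Col6a1, 22.5% had a region. The share was 42.5% from 25 to 100 kb, the class of Col6a2 and Col6a3. It was 73.2% over 100 kb, the class of Col6a4, Col6a5 and Col6a6. With 6 genes, the count of 1 is not read as a trait of the group.

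Fibrillar collagen genes had regions at 7 of 11. Over all protein-coding genes of 25 to 100 kb, the class of their median length, the share was 42.5%. Col5a1, Col5a2, Col11a1, Col24a1 and Col27a1 are over 100 kb, where the share was 73.2%. Col1a1 is under 25 kb, where it was 22.5%. The count of 7 is therefore not read as an excess. The 9 regions went from 9.92 to 53.6 with a median of 22.5, 7 of them held an ARE core, 1 held the composite element, and 2 were in both replicates' thresholded lists. Col27a1, a cartilage fibril gene, had 3 in its later introns. The strongest, in intron 36 (chromosome 4, 63307418 to 63307713), had a signal of 53.6, with 18.3 in replicate 1 and 35.1 in replicate 2. The others were in introns 41 (22.6) and 26 (19.1), and each of the 3 held an ARE core.

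Col3a1, the chain of the reticular fibres of skin and vessels, had a region in intron 13 (chromosome 1, 45329226 to 45329521) with a signal of 50.8. Its replicates were far apart, at 37.4 and rank 2375 in replicate 1 and 11.9 and rank 11191 in replicate 2, although both thresholded lists held it. Its summit was in repeat-masked sequence. Col24a1 had a region in intron 21 (signal 43.4), with 17.1 in replicate 1 and 25.6 in replicate 2, that was in the thresholded list of replicate 2 alone. It had a MAF core and no ARE core.

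The remaining fibrillar regions were weaker. Col5a1, whose chain limits the width of collagen I fibrils, had its summit in exon 66, after the coding sequence (chromosome 2, 28037576 to 28037871, signal 22.5). Col11a2, a cartilage gene, had a region in intron 37 with a composite element 22.5 bp from the summit and a signal of 19.1 (7.26 and 12.5), the lowest among the 6 regions with that element. The replicate 1 region that gave 7.26 overlapped it with a summit 208 bp away. Col1a2, a chain of collagen I, had a region 1460 bp upstream of the gene with a signal of 15.2 (8.94 and 4.51). Col5a3 had the lowest signal of the family, 9.92, in intron 1. None of these 4 was in both thresholded lists, and that of Col11a2 was in the list of replicate 2. Col1a1, Col2a1, Col5a2 and Col11a1 had no optimal region.

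The genes of collagen IV, the network of basement membranes, and of the FACIT group had no region in both replicates' thresholded lists. Of all protein-coding genes 15.8% had such a region, and 35.4% of all optimal regions were in both lists. With so few regions, the absence is not read as a trait of these groups. All 6 collagen IV genes are over 100 kb, a class in which 73.2% of all protein-coding genes had a region. Of the 6, Col4a1 and Col4a5 had 1 region each, with signals of 17.8 and 16.0, both in intron 1. The summit at Col4a1 was 152 bp from an internal TSS and 33018 bp from the 5' end of the gene. Neither region was in a thresholded list of a replicate, in the conservative list, or held an ARE core, MAF core or AP-1 element. The signal at Col4a1 was 5.33 in replicate 1 and 11.7 in replicate 2, and at Col4a5 12.2 and 5.54, so the replicates differed in opposite directions. Col4a2, Col4a3, Col4a4 and Col4a6 had none, and the nearest summit to a Col4a2 TSS was the one at Col4a1, 32997 bp away.

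Of the 9 FACIT genes, whose chains coat fibrils, Col9a1, Col16a1 and Col19a1 had regions. Col19a1 had 2, in intron 16 (signal 32.4, replicates 19.8 and 11.2, with the C-MARE shown above at 2 mismatches) and in intron 30 (16.3). The first of these was the 1 region found in the thresholded list of replicate 1 alone. Col16a1 had its region 1929 bp upstream, over the noncoding gene Gm12963, with a signal of 28.4 and unlike replicates (7.73 and 19.6). The region of Col9a1 in intron 37 had a signal of 19.9. None of these 4 was in both thresholded lists. Col9a2, Col9a3, Col12a1, Col14a1, Col20a1 and Col22a1 had no optimal region. Over all protein-coding genes of 25 to 100 kb, the class of the FACIT median length, 75.1 kb, 42.5% had a region. Col12a1, Col14a1, Col19a1 and Col22a1 are over 100 kb, where the share was 73.2%. Col9a2 and Col9a3 are under 25 kb, where it was 22.5%. With 9 genes, the count of 3 with a region is not read as a trait of the group.

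Among the short-chain collagen genes, Col8a2, a gene of the corneal Descemet membrane, had a region in intron 2, 840 bp from a TSS. Its signal of 19.8 came with 3.42 in replicate 1, at rank 83686, and 14.2 in replicate 2, at rank 8880. Col8a1 and Col10a1 had none, nor had Col7a1, the anchoring fibril gene of skin. Col26a1 had a region 5380 bp upstream of the gene (chromosome 5, 136888441 to 136888736, signal 42.7) that was in both thresholded lists and held a C-MARE with 1 mismatch. A second, in intron 3, had a signal of 21.1. Col28a1, a collagen of peripheral nerve, had 1 in intron 13 with a signal of 33.7 and none of the ARE core, MAF core and AP-1 element.

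The replicates ranked the collagen regions in a similar but not the same order. All 31 regions overlapped a region of each replicate's relaxed list. At Col11a2 and Col5a3 the replicate 1 summit was 208 and 224 bp from the optimal one, so the overlap may not be the same site. Across the 31, Spearman's rho of the replicates' signals was 0.64 and Pearson's r of the log2 values 0.80. Without the Col13a1 region of highest signal they were 0.60 and 0.73. Over the 16500 of 16865 optimal regions found in both relaxed lists they were 0.69 and 0.75. These points share their libraries and are given without a p-value. The rank differed by over 3 times between the replicates at 7 regions, at Col13a1 (the strongest), Col1a2, Col25a1 (2 regions), Col3a1, Col4a5 and Col8a2. At 10 regions it was within 1.5 times.

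In the thresholded lists, 12 of the 31 regions (38.7%) were in both replicates, against 35.4% of all optimal regions. Another 1 was in that of replicate 1 alone, 5 in that of replicate 2 alone, and 13 in neither. The 12 lay at 9 genes, Col3a1, Col6a6, Col13a1, Col17a1, Col18a1, Col23a1, Col25a1, Col26a1 and Col27a1, which is 20.5% of the collagen genes against 15.8% of protein-coding genes. These shares were not split by gene length, and collagen genes are longer (median 114 kb against 17.4 kb). Signals of the 12 went from 42.7 to 438 and those of the other 19 from 9.92 to 43.4. The signal and the thresholded lists come from the same 2 replicates, so this separation is partly built in and lends the 12 no support. The thresholded lists come from another processing run than the optimal list.

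**Figure D4:**
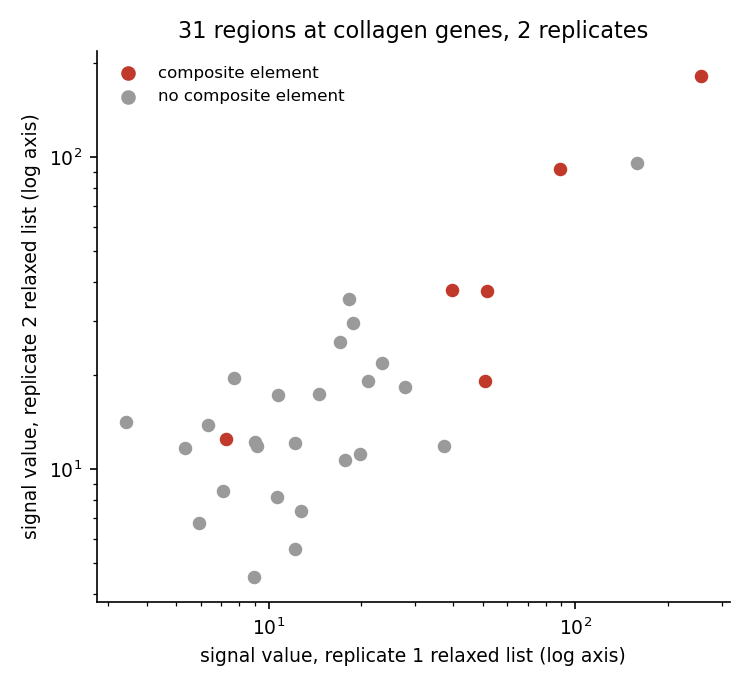
Signal value of the 31 collagen regions in the relaxed list of replicate 1 (horizontal, log axis) and replicate 2 (vertical, log axis), in red where a composite element was within 50 bp of the summit. The lists were made separately, so their scales may differ; Col13a1 is at the upper right with 257 and 183.

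An ARE core was at 19 of 31 (61.3%, Wilson interval 43.8 to 76.3), close to the 60.3% of all regions on the assembled chromosomes. Windows of the same width 1000 bp to either side of the collagen summits held it in 3 of 62 cases (4.84%). The MAF core TGCTGA was at 18 (58.1%) against 62.8%. The T-MARE with up to 2 mismatches was found at 13 (41.9%) against 39.2%. The composite element was at 6 (19.4%, interval 9.19 to 36.3) against 28.2%, and the AP-1 element TGACTCA or TGAGTCA at 9 (29.0%) against 37.8%. With 1 mismatch allowed, the composite share was 41.9% against 53.1%. Both strands were searched, and every composite element also holds an ARE core, a MAF core and an AP-1 element. The intervals cover counting error only, and those of these 5 elements include the share over all regions.

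The C-MARE palindrome with up to 2 mismatches was at 3 collagen summits (9.68%, interval 3.35 to 24.9), against 1.62% of all regions. The count rests on 3 sites, at Col25a1, Col26a1 and Col19a1, of which that at Col19a1 has 2 mismatches. Several elements were searched at regions that the rule had selected, so this difference is a description and was not tested. None of the 31 windows held the ETS element CCGGAAGT, the GC box GGGGCGGGG or the CTCF core, which allows a share of up to 9.68% by the limit of 3 counts of 31. Over all regions these were at 0.291%, 0.535% and 1.82%.

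Within the family, the composite element went with a higher median signal. The 6 regions with it had a median of 83.2 and 5 of them were in both thresholded lists, while the 25 without it had a median of 28.4 and 7 in both. The highest signal without it was 256, at Col25a1, and the lowest with it 19.1, at Col11a2. The same medians over all regions are not given here, so this is not read as a trait of collagen genes. The signal and the lists come from the same 2 replicates, so the counts in both lists add no support. The 5 regions with none of the ARE core, MAF core and AP-1 element, at Col4a1, Col4a5, Col8a2, Col13a1 and Col28a1, went from 16.0 to 33.7, and none was in both lists. The share of all regions with none of these elements is not given here, so the 5 are not read as a trait of these genes. Summits were in repeat-masked sequence at 2 of 31 (6.45%), against 16.4% of all regions, and the median GC content within 50 bp was 50.5% against 46.5%.

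**Figure D5:**
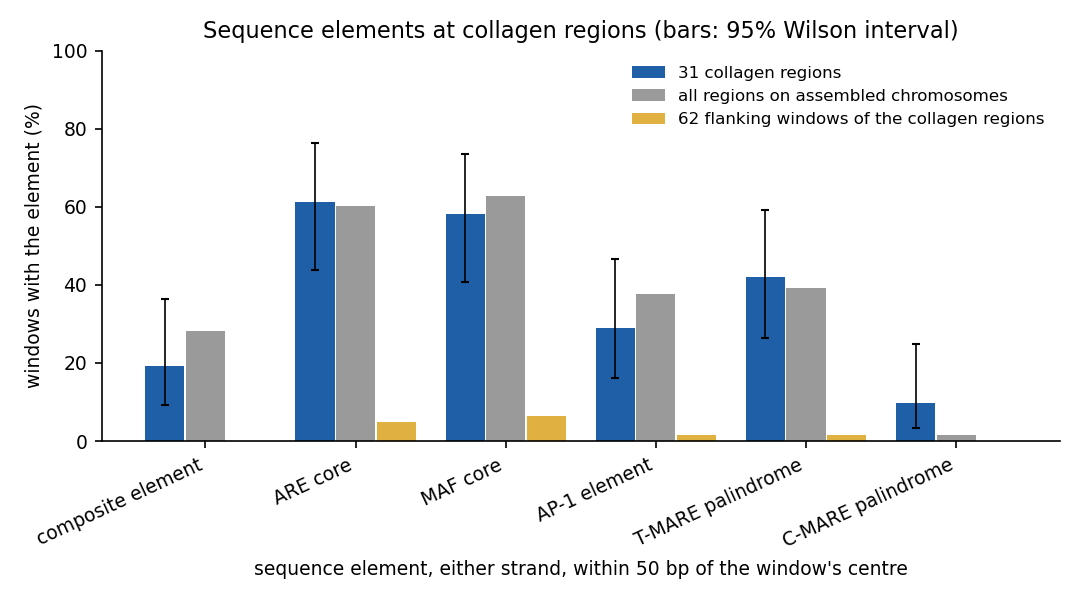
Share of windows (%, vertical axis) holding each sequence element on either strand within 50 bp of the centre, for the 31 collagen regions (blue, with 95% Wilson intervals), all regions (grey) and 62 flanking windows of the collagen regions (yellow). The ARE core is at 61.3%, 60.3% and 4.84% of them.

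At 23 collagen genes no optimal region met the rule. Their strongest region in the pooled relaxed list, which includes background, had signals from 4.598 at Col10a1 to 21.0 at Col12a1, with a median of 10.01. The upper part of this range overlaps the weaker optimal regions. At 3 of these genes another list held a region: Col12a1, Col1a1 and Col14a1. Col1a1, the main chain of collagen I, had 1 in exon 48 (chromosome 11, 94950335 to 94950630) with a signal of 18.8 in the pooled list, 10.3 in replicate 1 and 11.1 in replicate 2, in the conservative list and in the list of both replicates of the second run. It is shown because its composite element, in capitals, lies in coding sequence of the gene.
Col1a1, chr11:94950462-94950491, + strand: ctcaagagccTGAGTCAGCAgattgagaac

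Col12a1, a FACIT gene, had 2 in the same lists, 2493 bp upstream of a TSS (21.0) and in intron 53 (12.6). The second held a composite element. Col14a1 had 1 of 12.5 in the second run alone. None of the 23 genes had a region in a thresholded list of a single replicate. Of the 21 genes with an optimal region, 17 had 1 in the conservative list. The nearest summits outside the rule were 13071 bp from a TSS of Col28a1 (signal 20.7) and 15285 bp from one of Col9a3 (17.4).

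Genes that fold, secrete, crosslink, bind and cut collagen were read by the same rule. The median length of the genes of chain folding and modification was 16.7 kb, and 22.5% of all protein-coding genes under 25 kb had a region. Of these 15 genes, 5 (33.3%) had a region, a count not read as an excess, beside 34.0% of all protein-coding genes. They were led by P4hb, the shared subunit of prolyl 4-hydroxylase and protein disulfide isomerase (signal 84.4, replicates 43.1 and 41.7, with a composite element), and by Plod2, a lysyl hydroxylase (61.6). P3h2, a prolyl 3-hydroxylase, had 52.8, and Serpinh1, the collagen chaperone HSP47, had 49.999 with its summit 2551 bp upstream. These 4 were in both thresholded lists. P4ha1, P4ha2, P4ha3, P3h1, P3h3, Crtap, Plod1, Plod3, Colgalt1 and Colgalt2 had none.

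Of 16 genes of secretion, processing and crosslinking, 9 (56.2%) had a region. The share was 34.0% over all protein-coding genes and 42.5% over those of 25 to 100 kb, the class that holds the median length of this list, 57.1 kb. The strongest region of each of the 9 genes held an ARE core, which 60.3% of all regions held, though these were not picked as the strongest of a gene. Sec23a, a coat protein of the vesicles that leave the endoplasmic reticulum, had a signal of 212 (120 and 101 in replicates 1 and 2) with a composite element in intron 13. Loxl3, a lysyl oxidase relative, had 146, with its summit 804 bp upstream. Pcolce, the enhancer of procollagen C-proteinase, had 57.8, with its summit 22 bp from a TSS. Lox itself, the lysyl oxidase, had 38.6.

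Collagen receptor genes had a region at 6 of 9 (66.7%), led by Itga11 (40.03), Ddr2 (27.6), Itga1 (23.6) and Itga10 (20.5), with 1 of the 6 in both thresholded lists. Beside this stand 34.0% of all protein-coding genes and 42.5% of those of 25 to 100 kb, where the median length of the receptor genes, 59.8 kb, lies. Of the degradation list, 2 of the 6 genes found in the annotation (33.3%) had a region, beside 34.0% of all genes. Among all protein-coding genes under 25 kb, where the median length of this list, 12.3 kb, lies, the share was 22.5%. The 2 were the gelatinase gene Mmp9 (133, its summit 7039 bp upstream) and Mmp14 (108), both with a composite element and in both thresholded lists. Laminin chain genes, the other large family of basement membrane proteins, had a region at 8 of 11 (72.7%). With their median length of 114 kb, this was close to the 73.2% of all protein-coding genes over 100 kb. The strongest region of each of the 8 held an ARE core, as did 60.3% of all regions, which were not picked as the strongest of a gene. The 8 genes were led by Lama5 (199), Lamb3 (54.2), Lamc1 (45.5) and Lama3 (44.2).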

How the data were processed

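Binding was read from region lists on mm10, per the labels and the notes that accompany each sample. The authors deposited for each region a signal value, a score whose scale is not stated, and it serves here for description and ranks alone. Aligner and peak caller: not given in the sources used here. The read depth is unknown, and the control experiment that the labels name was not analysed here. Per those notes, the optimal and conservative lists come from relaxed lists of each replicate and of the pooled replicates, filtered on the irreproducible discovery rate, and the thresholded lists of replicates 1 and 2 come from a second run on other alignments.

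Genes were taken from GENCODE vM21 and sequences from GRCm38, with Python 3.11.15, numpy 2.4.6, scipy 1.17.1 and matplotlib 3.10.9. Positions are 1-based. A replicate's value is that of its strongest relaxed region sharing at least 1 bp. Elements were searched within 50 bp of the summit on the 16836 regions of the assembled chromosomes. Replicates share 1 source of cells, so their spread may be technical. The search and the assignment rule were tested on simulated data with known answers. Intervals are 95% Wilson or exact Poisson intervals and cover counting error only. All genes with a region are named, with fuller values for the strongest, and up to 4 genes of each other list. The members and lists were chosen with earlier results of these data known. The alternatives were other lists, other distances, other overlaps and other motif windows.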

Additional observations from a re-analysis of the deposited data

How the results depend on the processing

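The number of collagen genes with a region (21) was 13 in the strongest 50% of the optimal list and 12 with summits within 10 kb of a TSS only. It was 10 to 13 with the list of 1 replicate, which holds fewer regions (7748 or 9541) than the optimal list (16865). It stayed between 18 and 27 with the conservative list, the list of both replicates of the second run, the gene body alone, and within 2 kb or 50 kb. The 31 regions were 18 in the strongest 50%, 13 within 10 kb of a TSS only, 58 within 50 kb, and 16 to 18 with the list of 1 replicate. The 9 genes with a region in both replicates were 9 with either stricter overlap and 21 with the relaxed lists, which include background. The composite share (19.4%) was 41.9% with 1 mismatch allowed and 31.2 to 33.3% with the list of 1 replicate, and the share with an ARE core was 45.2 to 72.2% over its alternatives. The median signal (29.5) was 61.3 over regions in both thresholded lists. The 30 genes with a region in the 5 other lists, laminin chains included, were 20 to 33 over alternatives chosen after seeing the data. No paired analysis was possible because there is 1 group. The depth is unknown, and 31 regions leave wide intervals on each share.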

Other observations

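Beside the strongest region of Col13a1, other lists placed further regions in the same intron that the optimal list did not hold. The list of replicate 1 had 2 of them, at chromosome 10, 61929322 to 61929617 (signal 18.6) and 61928994 to 61929289 (7.92), and that of replicate 2 had 1, at 61929421 to 61929700 (12.99). The conservative list had 1 at 61929374 to 61929669 with a signal of 27.9. None held a composite element, and the second of replicate 1 held an ARE core. Whether these are separate sites or the edge of the strong region was not tested.

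The conservative list was not contained in the optimal list at these genes. Of the 30 conservative regions at collagen genes, those at Col1a1 and Col12a1 and 1 at Col13a1 overlapped no optimal region, and 26 of the 31 optimal regions were in the conservative list.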
